A study of Homo sapiens with 18 samples.

Results

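Panc89 Paraclone cells were compared with parental Panc89 cells in 6 of the 18 RNA-seq libraries of the study, 3 of each kind, taken by their labels. Panc89 is a human line from a lymph node metastasis of pancreatic ductal adenocarcinoma (PDAC) and served as the study's epithelial model. Parental cells are the uncloned line, and the Paraclone cells were grown out from 1 single cell (clone 3) chosen for its colony shape. Both were kept untreated in the same RPMI medium with serum, and the 3 libraries of a group come from 3 passages. P-values therefore measure spread between passages, pooled over the 6 groups of all 18 libraries, and not spread between clones. What Paraclone cells share and what this 1 clone happens to carry cannot be told apart. The study asked how cancer stem cell (CSC) and non-CSC populations differ, and the other 12 libraries hold Panc89 Holoclone cells and the same 3 variants of Panc1, the mesenchymal-like model from a primary tumor.

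Colonies raised from single carcinoma cells differ in shape. Compact Holoclones are regarded as rich in self-renewing cells, whereas loose and irregular Paraclones are regarded as colonies of more differentiated cells with limited self-renewal. In PDAC, epithelial cells keep E-cadherin junctions and keratins, and a move along the epithelial–mesenchymal transition (EMT) lowers these and raises vimentin and the ZEB factors. Basal-like and classical PDAC are the main transcriptional subtypes of the tumor.

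Levels are given as TPM, transcript abundances scaled by transcript length and by the total of the library, so they can be compared between genes. Changes are log2 fold changes (Paraclone minus parental) of log2(TPM + 1) with their standard error, from limma-trend over all 18 libraries, and a gene was called if its limma p-value adjusted by Benjamini-Hochberg was under 0.05. Adding 1 makes changes of genes near or under 1 TPM look smaller than they are. TPM keep no read totals, so the depth of the libraries is unknown. In bulk RNA, fewer cells that express a gene and less RNA of it per cell cannot be told apart.

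The 6 libraries held 13360 to 13844 genes with at least 1 TPM, and the mitochondrial share of the TPM was 5.90% to 8.79%. Across genes, which are not independent replicates, log2 levels correlated at 0.985 to 0.992 among parental libraries, at 0.954 to 0.985 among Paraclone libraries and at 0.935 to 0.966 between the groups. The defining ductal markers *KRT7*, *KRT8*, *KRT18*, *KRT19*, *EPCAM* and *CDH1* summed to 4882 to 5450 TPM in parental and to 5269 to 6862 TPM in Paraclone libraries. Of 27 markers of other cell types, 22 failed the filter on low values, among them all 8 of acinar and endocrine cells, which were under 1 TPM in all 6 libraries. Paraclone replicate 2 stood apart from the other Paraclone libraries: *MKI67*, a proliferation marker, was at 33.1 TPM there and at 2.43 and 4.61 TPM in Paraclone replicates 1 and 3, with 18.8, 19.2 and 20.3 TPM in the parental libraries. For lists whose counts moved most without this library, both values are given.

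Sequences that go with the results below are shown first. Among the interferon-stimulated genes called lower, 3 held in their promoter the motif that interferon-activated factors are known to bind, and these 3 promoters are shown. They come from RefSeq (GRCh38.p14), run from 250 bases before to 50 bases after the annotated start, 5′ to 3′ on the gene's strand, and have in capitals each match to TTTC, any 2 bases and TTTC again, or on the other strand GAAA, any 2 bases and GAAA, overlapping matches included.
*IFIT1* (chr10:89392373-89392672, plus strand): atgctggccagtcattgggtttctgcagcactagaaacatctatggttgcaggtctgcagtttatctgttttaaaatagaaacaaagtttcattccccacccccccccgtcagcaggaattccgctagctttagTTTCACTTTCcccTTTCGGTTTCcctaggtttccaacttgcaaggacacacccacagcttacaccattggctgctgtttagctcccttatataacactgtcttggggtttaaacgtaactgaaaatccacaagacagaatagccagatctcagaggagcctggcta
*IFIT5* (chr10:89414318-89414617, plus strand): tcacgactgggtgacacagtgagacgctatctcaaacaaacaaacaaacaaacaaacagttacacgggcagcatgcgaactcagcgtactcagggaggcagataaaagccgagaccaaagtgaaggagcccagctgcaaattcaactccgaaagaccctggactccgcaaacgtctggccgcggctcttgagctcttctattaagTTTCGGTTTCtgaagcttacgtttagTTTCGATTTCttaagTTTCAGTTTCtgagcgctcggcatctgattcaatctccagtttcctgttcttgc
*EPSTI1* (chr13:42992192-42992491, minus strand): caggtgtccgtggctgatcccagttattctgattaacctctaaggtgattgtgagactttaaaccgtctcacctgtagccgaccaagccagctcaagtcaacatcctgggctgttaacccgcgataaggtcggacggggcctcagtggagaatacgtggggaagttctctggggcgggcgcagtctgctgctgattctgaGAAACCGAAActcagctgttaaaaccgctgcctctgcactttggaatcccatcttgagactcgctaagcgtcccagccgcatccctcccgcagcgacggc
A further sequence belongs to *MIR31*, which was among the 10 genes that rose most. Its mature 5p arm is given for reference (RefSeq, GRCh38.p14, chr9:21512158-21512178, minus strand) with the seed, bases 2 to 8, in capitals.
hsa-miR-31-5p: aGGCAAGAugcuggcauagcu

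Of 16093 genes tested, 3120 (19.4%) were called, 1508 (9.37%) higher and 1612 (10%) lower in Paraclone cells, and the middle of all changes lay at −0.02 on the log2 scale. A further requirement of a log2 fold change beyond 1 in size left 1184 genes, 513 higher and 671 lower. For 5759 genes (35.8%) every Paraclone library lay on 1 side of every parental library. Without Paraclone replicate 2, 4249 genes (26.4%) were called, 1788 (11.1%) higher and 2461 (15.3%) lower. In the plot of all genes, losses reach farther than gains.

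**Figure D1:**
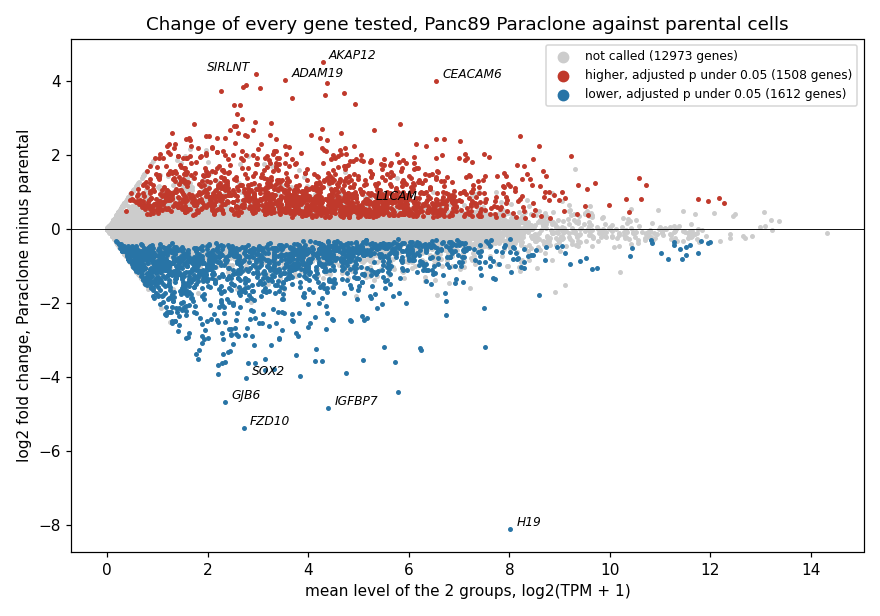
Each point is 1 of the 16093 genes tested, with the mean of the parental and Paraclone levels, log2(TPM + 1), on the x axis and the log2 fold change, Paraclone minus parental, on the y axis. Red points were called higher (1508), blue points lower (1612) and grey points were not called, and *H19* at −8.10 lies farther from 0 than *AKAP12* at 4.49, the called gene that rose most.

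The 10 genes that rose most and reached a mean of 10 TPM in Paraclone cells, without overlap between the groups, were *AKAP12*, *SIRLNT*, *ADAM19*, *CEACAM6*, *MFAP5*, *CHST2*, *BTF3P7*, *PSTPIP1*, *MIR31* and *CEACAM5*. *AKAP12*, a scaffold protein for kinases, was at 1.91, 6.10 and 2.34 TPM in parental and at 175, 37.4 and 116 TPM in Paraclone cells, which is 4.49 ± 0.44 on the log2 scale (SE, limma adjusted p = 4.46e-06). *SIRLNT*, a long noncoding RNA on chromosome 8, had the tightest values, with 0.806, 1.01 and 0.680 TPM in parental and 33.9, 32.0 and 30.7 TPM in Paraclone cells (4.18 ± 0.10, adjusted p = 5.66e-13). It was listed at 0 in all 3 Holoclone libraries. *ADAM19*, a membrane-bound metalloproteinase, was at 1.53, 2.74 and 1.53 TPM in parental and at 66.5, 29.5 and 48.9 TPM in Paraclone cells (4.02 ± 0.31, adjusted p = 3.45e-07). The microfibril protein gene *MFAP5* went from 2.83, 8.38 and 3.26 TPM to 74.7, 76.3 and 90.1 TPM (3.92 ± 0.31, adjusted p = 4.8e-07). The lack of overlap between the groups was part of the rule, and in *AKAP12* and *ADAM19* the lowest Paraclone library was replicate 2.

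The carcinoembryonic antigen genes *CEACAM6* and *CEACAM5*, which encode adhesion proteins anchored to the cell surface, rose together. *CEACAM6* was at 17.5, 30.4 and 20.7 TPM in parental and at 817, 128 and 487 TPM in Paraclone cells (4 ± 0.46, adjusted p = 2.25e-05). *CEACAM5* was at 5.22, 5.85 and 8.52 TPM in parental and at 280, 15.2 and 178 TPM in Paraclone cells (3.66 ± 0.67, adjusted p = 0.0011). Paraclone replicate 2 held the lowest Paraclone value of both, and without it the log2 fold changes were 4.76 and 4.92. These genes lie next to each other in a family of similar sequences on chromosome 19, between which the authors' quantification could divide reads, so their split is uncertain. The *CEACAM5* call was lost in the limma fit of the 6 libraries compared (adjusted p = 0.0843).

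*MIR31* is the least certain of the 10. Its entry is a hairpin of 71 bases within the transcribed region of *MIR31HG*, a size that mRNA libraries do not capture on its own, and the mature arm printed above was not measured. The entry was at 1.35, 0 and 0 TPM in parental and at 43.5, 1.43 and 48.1 TPM in Paraclone cells (3.71 ± 0.95, adjusted p = 0.0116). The call was lost without Paraclone replicate 1 (3.04) and without Paraclone replicate 3 (2.97), and *MIR31HG*, which was chosen after its values were seen, was not called (0.40 ± 0.18, adjusted p = 0.136). *BTF3P7* is a processed pseudogene and shares sequence with its parent gene, so its rise from 0.878, 1.22 and 0.275 TPM to 42.8, 9.67 and 30.7 TPM (3.81 ± 0.37) is uncertain too.

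The 10 genes that fell most by the same rule were *H19*, *FZD10*, *IGFBP7*, *GJB6*, *ALDH3A1*, *SOX2*, *XAF1*, *IGFBP2*, *CD70* and *TESC*. *H19*, an imprinted long noncoding RNA of the fetal growth locus on chromosome 11, was at 3545, 5095 and 4357 TPM in parental cells and at 10.2, 23.2 and 13.1 TPM in Paraclone cells (−8.10 ± 0.25, adjusted p = 8.36e-12). Holoclone cells held 2471, 2075 and 2063 TPM of it. On the scale used here, which adds a constant to every TPM, *H19* thus had the largest log2 fold change of all genes called. Without Paraclone replicate 2 its log2 fold change was −8.41. The constant shrinks the changes of genes close to the bottom of the scale in Paraclone cells, such as *FZD10* and *GJB6* below. The rank of *H19* against such genes may therefore not hold with a smaller constant.

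*FZD10*, a receptor for WNT ligands, was at 43.4, 41.5 and 39.5 TPM in parental cells, whereas Paraclone replicates 1 and 3 were listed at 0 and replicate 2 was at 0.0395 TPM (−5.39 ± 0.10, adjusted p = 2.07e-14). Its antisense neighbour *FZD10-AS1*, chosen after its values were seen, fell from 10.8, 9.02 and 10.4 TPM to 0.00385, 0.0520 and 0.117 TPM (−3.38 ± 0.10), and since the strand setting of the quantification is not given in the sources used here, reads of the 2 genes may not be told apart. *GJB6*, which encodes a connexin of gap junctions, was at 27.9, 22.9 and 23.1 TPM in parental cells and listed at 0, 0.0150 and 0 TPM in Paraclone cells (−4.67 ± 0.19, adjusted p = 2.43e-10). Both genes were thus close to the bottom of the scale in every Paraclone library, while Holoclone cells held 0.522 to 0.786 TPM of *FZD10* and 9.89 to 12.6 TPM of *GJB6*.

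*ALDH3A1*, an aldehyde dehydrogenase, fell from 210, 282 and 267 TPM to 4.44, 14.1 and 19.6 TPM (−4.40 ± 0.33, adjusted p = 2.09e-07), and Holoclone cells held 897 to 1257 TPM. *CD70*, a ligand of the TNF family, fell from 93.1, 120 and 98.1 TPM to 5.64, 8.45 and 4.35 TPM (−3.90 ± 0.32). *TESC*, a calcium-binding protein, fell from 36.4, 24.9 and 36.9 TPM to 1.43, 0.709 and 2.11 TPM (−3.82 ± 0.26). Both were low in Holoclone cells as well, at 1.31 to 5.62 TPM for *CD70* and 5.12 to 7.96 TPM for *TESC*, whereas *ALDH3A1* was highest there.

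**Figure D2:**
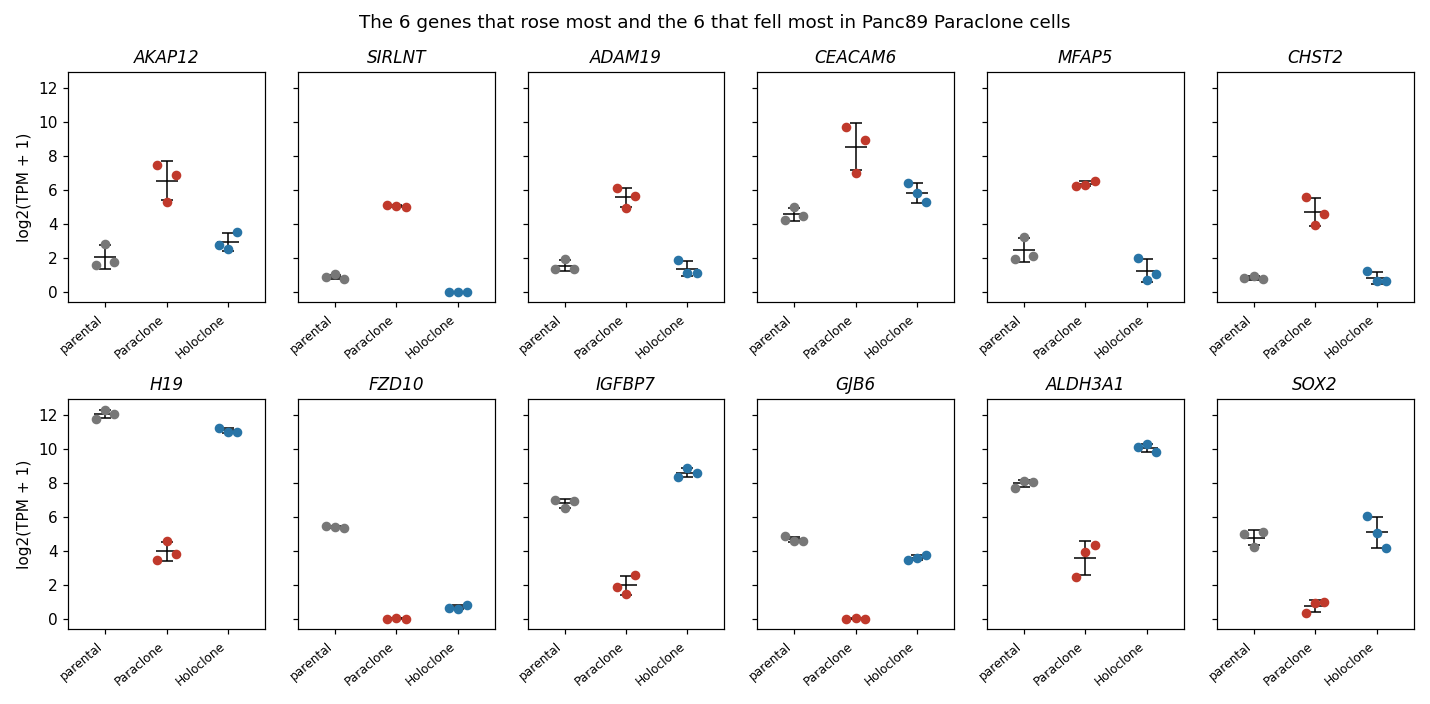
Each panel shows 1 gene, with log2(TPM + 1) on the y axis and 1 point per library for parental, Paraclone and Holoclone Panc89 cells. Bars are the mean ± SD of 3 libraries, and the changes run from *AKAP12* (4.49) to *SOX2* (−4.03). The genes were chosen for having no overlap between parental and Paraclone points.

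The study followed 8 CSC and EMT markers, and 3 of them were called, *SOX2* lower and *ZEB1* and *ZEB2* higher. The variants had been monitored by qPCR of markers during culture, so these genes are no independent test of the clone's label. *SOX2*, a transcription factor of stem cells, was at 30.7, 18.1 and 32.9 TPM in parental and at 0.252, 0.909 and 0.981 TPM in Paraclone cells (−4.03 ± 0.34, adjusted p = 7.69e-07). Holoclone cells were at 17.3 to 64.3 TPM. *ZEB2*, a repressor of epithelial genes, rose from 0.736, 0.614 and 0.625 TPM to 2.78, 1.77 and 1.74 TPM (0.89 ± 0.14, adjusted p = 0.000308). Its relative *ZEB1* rose from 0.0294, 0.0709 and 0.0555 TPM to 3.00, 0.318 and 1.09 TPM (1.08 ± 0.26, adjusted p = 0.00866), so both stayed at or under 3 TPM. The *ZEB1* call was lost in the fits of the 6 libraries compared (adjusted p = 0.134) and of the 9 Panc89 libraries (adjusted p = 0.0751) and with a replicate block in the 6 libraries (adjusted p = 0.176), and the *ZEB2* call in the last of these (adjusted p = 0.0566).

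The other 5 markers were not called in the fit of all 18 libraries, and 4 of them were called higher under some alternatives. *L1CAM*, a neural adhesion protein, was at 25.3, 34.3 and 25.5 TPM in parental and at 35.4, 85.8 and 32.4 TPM in Paraclone cells (0.70 ± 0.26, adjusted p = 0.076). Replicate 2 was the highest library of each group, the groups overlapped, and without Paraclone replicate 2 the log2 fold change was 0.26. It was called with median-of-ratios scaling (adjusted p = 0.0386) and without Paraclone replicate 3 (0.95, adjusted p = 0.025). *CDH1*, which encodes E-cadherin, was at 73.3, 77.9 and 74.7 TPM in parental and at 100, 94.0 and 99.8 TPM in Paraclone cells (0.38 ± 0.19, adjusted p = 0.191), without overlap, and was called in the limma fits of the 6 libraries compared (adjusted p = 0.019) and of the 9 Panc89 libraries (adjusted p = 0.027). *OVOL2*, a factor that maintains the epithelial state, was at 7.20, 9.15 and 9.43 TPM against 11.9, 12.5 and 12.3 TPM (0.47 ± 0.16, adjusted p = 0.0542), with a call under median-of-ratios scaling (adjusted p = 0.047) and without the trend (adjusted p = 0.0433). *VIM* was under 0.5 TPM in all 6 libraries (0.35 ± 0.15, adjusted p = 0.126). With a pseudocount of 0.1 its log2 fold change was 1.47 (adjusted p = 0.00059), and it was also called in the limma fits of 6 (adjusted p = 0.042) and of 9 libraries (adjusted p = 0.0243). *NES*, which encodes nestin, was under 0.8 TPM (−0.15 ± 0.28, adjusted p = 0.79).

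Among 31 stem cell and CSC markers, 25 passed the filter, 7 rose and 3 fell, with a median of 0.3. The surface and efflux group went 1 way, as 5 of its 10 tested members rose and 0 fell. Among these were the kinase gene *DCLK1*, from 1.12, 1.20 and 1.31 TPM to 9.79, 6.81 and 8.44 TPM (2.07 ± 0.15, adjusted p = 1.59e-07), and the chemokine receptor *CXCR4*, from 3.86, 3.46 and 4.31 TPM to 29.4, 8.91 and 24.2 TPM (2.01 ± 0.28, adjusted p = 0.000105). *CXCR4* was listed at 0 in all 3 Holoclone libraries. The members that fell were *SOX2*, *ALDH3A1* and *ALDH1A1*, which is an aldehyde dehydrogenase used to define CSCs. The list thus held rises and losses side by side, with 28% of the tested members higher against 9.37% of all genes.

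EMT inducers and mesenchymal markers had 9 higher and 4 lower of 31 tested and a median of 0.15. The shares were 29.0% and 12.9%, against 9.37% and 10% of all genes, so the lower share was near that of all genes. *AXL*, a receptor tyrosine kinase of mesenchymal cells, rose from 4.96, 7.66 and 5.80 TPM to 40.5, 22.2 and 25 TPM (2.05 ± 0.22, adjusted p = 9.78e-06). The ectonucleotidase gene *NT5E* (CD73) rose from 47.9, 51.6 and 43.1 TPM to 237, 143 and 170 TPM (1.90 ± 0.18, adjusted p = 2.65e-06), and *TNC*, the matrix protein tenascin C, from 3.81, 8.69 and 5.17 TPM to 18.6, 30.6 and 22.6 TPM (1.89 ± 0.37, adjusted p = 0.00191). *LOX*, which crosslinks collagen, went the other way, from 27.2, 14 and 27.2 TPM to 2.69, 5.13 and 4 TPM (−2.24 ± 0.26, adjusted p = 2.36e-05). *SNAI1*, a repressor of *CDH1* chosen after its values were seen, fell from 25.5, 30.3 and 25.4 TPM to 9.95, 9.48 and 11.1 TPM (−1.33 ± 0.18). The EMT factors therefore did not move as 1 group, since *ZEB1* and *ZEB2* rose and *SNAI1* fell.

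Of 49 epithelial junction and polarity genes tested, 9 rose and 7 fell, with a median of 0.09. The shares were 18.4% and 14.3%, against 9.37% and 10% of all genes. Desmosome genes, which bolt cells to each other, supplied 5 of the rises among 10 tested, while *DSC3* fell. The epithelial regulators *GRHL2* and *TP63* fell: *GRHL2* was at 32.3, 28.5 and 34.6 TPM in parental and at 7.18, 12.5 and 11.8 TPM in Paraclone cells (−1.55 ± 0.20, adjusted p = 4.61e-05). *TP63*, a factor of basal epithelial cells, went from 48.9, 33.1 and 49.0 TPM to 10.4, 20.4 and 18.3 TPM (−1.39 ± 0.20, adjusted p = 0.000144), against 127 to 154 TPM in Holoclone cells. Without Paraclone replicate 2 the list had 12 higher and 7 lower, and without either parental replicate 1 or 3 it had 5 higher and 5 lower.

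Keratins, the filaments of epithelial cells, gave 4 higher and 3 lower of 19 tested (21.1% and 15.8%, against 9.37% and 10% of all genes). *KRT14*, a keratin of basal cells, rose from 1.39, 3.61 and 1.84 TPM to 9.86, 5.89 and 9.04 TPM (1.53 ± 0.28, adjusted p = 0.000995), and *KRT6A* from 158, 271 and 157 TPM to 475, 404 and 347 TPM (1.10 ± 0.22, adjusted p = 0.00187). *KRT23* fell from 22.8, 21.4 and 28 TPM to 2.47, 2.35 and 5.53 TPM (−2.56 ± 0.20, adjusted p = 3.62e-07). *KRT14* and *KRT6A* belong to groups of near-identical genes and pseudogenes, so their levels are uncertain. Without Paraclone replicate 1 or 3, 1 keratin in place of 3 was called lower.

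Basal-like PDAC genes (written after the Moffitt signature) had 8 higher and 3 lower of 24 tested and a median of 0.45. *SERPINB3*, a protease inhibitor of squamous cells, rose from 34.1, 41.6 and 34.9 TPM to 197, 141 and 194 TPM (2.23 ± 0.25, adjusted p = 1.46e-05), and *SERPINB4*, which is nearly identical to it, rose too. *S100A2* rose from 49.8, 116 and 54.2 TPM to 259, 284 and 290 TPM (2.01 ± 0.32, adjusted p = 0.000343), and *SCEL*, a precursor of the cornified envelope, from 29.7, 31.8 and 29.0 TPM to 165, 61.4 and 138 TPM (1.86 ± 0.24, adjusted p = 5.81e-05). *LY6D*, a surface protein of the same list, fell from 475, 642 and 547 TPM to 22.9, 155 and 56.7 TPM (−3.20 ± 0.47, adjusted p = 0.000178). The basal-like list thus held 33.3% higher members, against 9.37% of all genes, and 1 of the largest losses.

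Classical PDAC genes were mostly silent, as 11 of 25 passed the filter. Of these, 2 rose and 2 fell (18.2% each, against 9.37% and 10% of all genes). *AGR2*, a disulfide isomerase of secretory cells, fell from 146, 66.9 and 157 TPM to 4.05, 10.8 and 15.7 TPM (−3.54 ± 0.45, adjusted p = 5.30e-05), whereas Holoclone cells were at 271 to 621 TPM. *CEACAM6* was the classical gene that rose most. Mucins and secreted glycoproteins shared both of these trends, with 4 higher and 8 lower of 22 tested (18.2% and 36.4%). *WFDC2*, a secreted protease inhibitor, fell from 231, 131 and 198 TPM to 13.5, 10.5 and 19.9 TPM (−3.59 ± 0.28, adjusted p = 4.60e-07). *MUC5B*, a gel-forming mucin, fell from 37.9, 33.8 and 40.2 TPM to 2.38, 3.82 and 7.16 TPM (−2.90 ± 0.24, adjusted p = 7.13e-07). Without Paraclone replicate 2 the counts were 4 higher and 2 lower for the classical list and 8 higher and 7 lower for the mucins.

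Of 14 pancreatic and foregut lineage factors tested, 2 rose and 3 fell (14.3% and 21.4%, against 9.37% and 10% of all genes). *FOXA1*, a pioneer factor of endoderm, rose from 14.2, 13 and 15.4 TPM to 29.7, 33.5 and 29.1 TPM (1.06 ± 0.24, adjusted p = 0.00453), while its relative *FOXA2* fell (−1.36). Without any 1 of the libraries other than Paraclone replicate 2, 1 factor in place of 2 was called higher.

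In the insulin-like growth factor (IGF) axis, 5 of the 8 binding protein genes tested fell and 1 rose, against 10% and 9.37% of all genes. Binding proteins bind IGFs outside the cell. Of 6 ligand, receptor and adaptor genes 0 were called by limma, and the difference between these groups of genes was not tested. The whole list, which also holds imprinted genes and oncofetal RNA-binding proteins, had 3 higher and 6 lower of 21, and 5 higher and 6 lower without Paraclone replicate 2. *IGFBP7* fell from 128, 90.0 and 121 TPM to 2.6, 1.77 and 5.03 TPM (−4.85 ± 0.26, adjusted p = 7.82e-09), with 322 to 464 TPM in Holoclone cells. *IGFBP2* fell from 13.1, 21.4 and 17.3 TPM to 0.125, 0.211 and 0.214 TPM (−3.92 ± 0.20, adjusted p = 4.31e-09), and *IGFBP3* from 83.0, 40.2 and 87.5 TPM to 10.9, 11.7 and 10.8 TPM (−2.48 ± 0.28, adjusted p = 1.83e-05). *IGFBP6*, chosen after its values were seen, rose from 77.0, 110 and 81.4 TPM to 354, 340 and 394 TPM (2.02 ± 0.21). *IGF2*, which shares the imprinted region with *H19*, was at or under 0.11 TPM in all 6 libraries.

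Integrins and laminins, the receptors and chains that bind cells to the basement membrane, had 11 of 22 members higher, 2 lower and 9 not called. The higher and lower shares were 50.0% and 9.09%, against 9.37% and 10% of all genes, with a median of 0.49 and with 19 of 22 above 0. Chains of the laminin that anchors epithelia were among those that rose. *LAMA3* rose from 24.3, 42.6 and 28.3 TPM to 235, 100 and 157 TPM (2.29 ± 0.27, adjusted p = 2.38e-05), and *LAMB3* had a log2 fold change of 1.31 ± 0.30. *ITGB4*, the integrin chain of hemidesmosomes that binds this laminin, rose from 196, 320 and 214 TPM to 954, 435 and 810 TPM (1.54 ± 0.31, adjusted p = 0.00235), while its partner *ITGA6* was not called. *ITGA1*, a collagen receptor chain, rose from 7.76, 4.46 and 6.91 TPM to 17.9, 24.6 and 28.6 TPM (1.75 ± 0.28, adjusted p = 0.000363). The laminins *LAMA4* and *LAMA1* fell. Leaving out 1 library in turn left 10 to 13 members higher and 2 lower, and *LAMB3* was named after its values were seen.

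S100 and annexin genes, small calcium-binding proteins and membrane binders, gave 10 higher and 4 lower of 22 tested, with a median of 0.61. The shares were 45.5% and 18.2%, against 9.37% and 10% of all genes. *ANXA3* rose from 166, 246 and 156 TPM to 933, 472 and 714 TPM (1.87 ± 0.23, adjusted p = 3.75e-05). *S100A8* and *S100A9*, the subunits of calprotectin, were the 2 of 13 S100 genes tested that were called lower, while 7 were called higher. Of 9 annexins tested, 3 were called higher and 2 lower. *S100A8* went from 25.5, 23.3 and 29.9 TPM to 0.394, 3.59 and 0.649 TPM (−3.63 ± 0.3, adjusted p = 6.92e-07), and *S100A9* from 423, 333 and 377 TPM to 52.6, 107 and 109 TPM (−2.13 ± 0.24, adjusted p = 1.60e-05). With 1 library left out in turn, 9 or 10 members were higher and 4 lower.

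Proteases and their inhibitors moved both ways, with 8 higher and 11 lower of 30 tested (26.7% and 36.7%, against 9.37% and 10% of all genes). *TIMP1*, an inhibitor of metalloproteinases, rose from 123, 117 and 127 TPM to 1012, 369 and 929 TPM (2.51 ± 0.27, adjusted p = 8.90e-06). *MMP10*, a matrix metalloproteinase, fell from 51.1, 15.8 and 71.0 TPM to 12.3, 1.43 and 6.79 TPM (−2.66 ± 0.51, adjusted p = 0.00156), and the collagenase gene *MMP13* from 11.7, 3.73 and 12.9 TPM to 0.185, 1.5 and 0.584 TPM (−2.49 ± 0.35, adjusted p = 0.000117). *PLAT*, the tissue plasminogen activator, fell from 11, 13.9 and 12.2 TPM to 1.77, 2.92 and 3.02 TPM (−1.92 ± 0.36, adjusted p = 0.00119). Without Paraclone replicate 3, parental replicate 1 or parental replicate 3, 5 members were called higher. The *MMP10* call was lost in the limma fit of the 6 libraries compared (adjusted p = 0.0912).

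Of 34 neural adhesion and guidance genes tested, 6 rose and 9 fell (17.6% and 26.5%, against 9.37% and 10% of all genes). *CADM1*, an adhesion protein of epithelia and nerves, fell from 14.1, 11.4 and 14.2 TPM to 0.676, 1.32 and 1.59 TPM (−2.71 ± 0.23, adjusted p = 1.11e-06), against 58.6 to 80.1 TPM in Holoclone cells. *MCAM* fell from 4.62, 4.75 and 5.72 TPM to 0.137, 0.806 and 0.0781 TPM (−2.21 ± 0.26, adjusted p = 2.51e-05). The ephrin receptor *EPHA2* rose from 95.2, 143 and 101 TPM to 335, 262 and 310 TPM (1.43 ± 0.14, adjusted p = 4.92e-06), and the semaphorin coreceptor *NRP2* from 31.1, 57.7 and 35.4 TPM to 100, 111 and 102 TPM (1.36 ± 0.19, adjusted p = 0.000142). *EPHA2* and *NRP2* were the members with the largest rises, and neither overlapped between the groups. Without parental replicate 1 or 3, 6 members in place of 9 were called lower.

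Interferon-stimulated genes (ISGs), which interferon turns on in defence against viruses, gave 0 higher and 8 lower of 43 tested (18.6% against 10% of all genes), with a median of −0.62, and 39 of 43 lay below 0. *XAF1*, a proapoptotic ISG, fell from 89.8, 25.1 and 75.1 TPM to 1.28, 4.17 and 2.88 TPM (−3.98 ± 0.50, adjusted p = 4.36e-05). *EPSTI1* fell from 14.7, 6.12 and 10.9 TPM to 0.0176, 0.216 and 0.189 TPM (−3.27 ± 0.32, adjusted p = 4.55e-06). *IFIT1*, which binds viral RNA, was at 253, 140 and 262 TPM in parental and at 17.7, 147 and 58.1 TPM in Paraclone cells (−1.95 ± 0.58, adjusted p = 0.0264), so that the groups overlapped through replicate 2. Its call was lost without any 1 of the libraries parental replicate 1 (−1.81), parental replicate 3 (−1.79), Paraclone replicate 1 (−1.18) and Paraclone replicate 3 (−2.01).

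The level of the ISG list, as the median deviation of its 43 genes from the parental mean, was 0.35, −0.61 and 0.26 in the parental and −1.41, −0.03 and −0.43 in the Paraclone libraries. Replicate 2 was thus the lowest parental and the highest Paraclone library, and the groups overlapped. Without Paraclone replicate 2, 17 genes were called lower and the median was −1.01, whereas without Paraclone replicate 1 or without parental replicate 1, 3 were called lower, and the median without Paraclone replicate 1 was −0.27. Of the 32 ISGs tested that had a promoter in the reference, 20 (62.5%) held the motif of the sequences printed above, against 335 of 11821 (2.83%) promoters of all genes tested and 996 of 27305 (3.65%) of all promoters. Among the ISGs called lower it was 3 of 6 (50.0%). A match says that these letters are in the window, not that a factor binds there.

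Antigen presentation genes fell in 11 of 21 tested (52.4%, against 10% of all genes) and rose in 0. The median was −0.76 (−0.45 without Paraclone replicate 1), and 20 of 21 lay below 0. Class II genes display extracellular peptides and are run by the activator CIITA, and 5 of the 6 tested fell. *CD74*, the invariant chain of class II, went from 21.4, 8.91 and 21.8 TPM to 0.330, 0.375 and 0.450 TPM (−3.63 ± 0.28, adjusted p = 3.56e-07), and *HLA-DRA* from 6.73, 2.13 and 6.46 TPM to 0.110, 0.138 and 0.361 TPM (−2.24 ± 0.25, adjusted p = 1.25e-05). *CIITA*, chosen after its values were seen, went from 3.18, 1.14 and 2.51 TPM to 0.3, 0.363 and 0.204 TPM (−1.29 ± 0.22). In class I and peptide processing, 6 of 15 fell, among them the immunoproteasome subunit *PSMB8* (−1.0 ± 0.20), also chosen after its values were seen. HLA genes are alike in sequence and vary between people, so their TPM are uncertain. The list level was 0.23, −0.36 and 0.12 in parental and −0.94, −0.47 and −0.62 in Paraclone libraries, without overlap, and the count of lower genes ran from 6 without parental replicate 1 to 14 without parental replicate 2.

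Of 26 cytokines and chemokines tested, 6 rose and 7 fell (23.1% and 26.9%, against 9.37% and 10% of all genes). *TNFSF10* (TRAIL), a death ligand, fell from 276, 136 and 309 TPM to 10.2, 42.4 and 28.5 TPM (−3.23 ± 0.42, adjusted p = 6.05e-05). The neutrophil chemokine *CXCL2* fell from 66.4, 15.4 and 66.4 TPM to 12.4, 8.04 and 7.05 TPM (−2.09 ± 0.50, adjusted p = 0.00761). *IL1B*, which encodes an inflammatory interleukin, rose from 41.3, 54.7 and 36.9 TPM to 569, 86.8 and 275 TPM (2.42 ± 0.44, adjusted p = 0.000959). The groups did not overlap for any of these, and for *TNFSF10* and *IL1B* the Paraclone library nearest to the parental ones was replicate 2. In the limma fit of the 6 libraries compared, the calls of *IL1B* (adjusted p = 0.0725) and *CXCL2* (adjusted p = 0.0797) were lost. Counts ran from 4 higher without Paraclone replicate 1 to 9 higher without Paraclone replicate 2, and 3 genes were called lower without parental replicate 1 or 3 or Paraclone replicate 3.

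**Figure D3:**
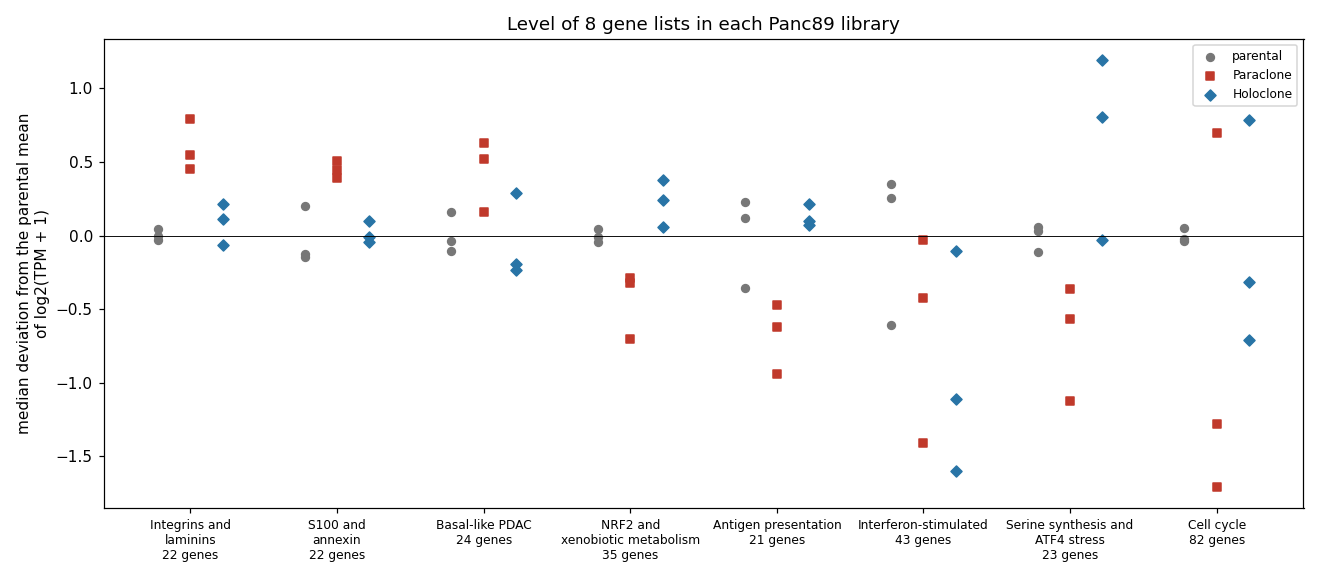
The y axis gives, for each Panc89 library, the median deviation of the genes of a list from their parental mean on the log2(TPM + 1) scale, for 8 lists picked after their values were seen. Integrins and laminins lie at 0.45 to 0.79 and antigen presentation genes at −0.94 to −0.47 in the Paraclone libraries, apart from the parental ones, while in cell cycle genes Paraclone replicate 2 lies at 0.69 and replicates 1 and 3 at −1.71 and −1.28.

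NRF2 and xenobiotic metabolism genes, which detoxify electrophiles and foreign compounds, had 0 higher and 13 lower of 35 tested. The lower share was 37.1%, against 10% of all genes, with a median of −0.39 (−0.23 without Paraclone replicate 1). *GPX2*, a glutathione peroxidase of epithelia, fell from 14.2, 20.7 and 12.4 TPM to 0.237, 0.494 and 0.137 TPM (−3.68 ± 0.18, adjusted p = 1.88e-09). *AHR*, the receptor that senses aromatic compounds, fell from 133, 103 and 137 TPM to 33.0, 21.7 and 37.0 TPM (−2.01 ± 0.21, adjusted p = 6.58e-06). Its target *CYP1A1*, chosen after its values were seen, fell from 4.79, 3.52 and 5.91 TPM to 0.437, 0.540 and 0.331 TPM (−1.98 ± 0.16). *AKR1C2*, an aldo-keto reductase, fell from 7.07, 18 and 5.53 TPM to 0.776, 1.61 and 1.92 TPM (−2.07 ± 0.46, adjusted p = 0.00483), and its share of reads is uncertain since *AKR1C1* is nearly identical. *NFE2L2*, which encodes NRF2, and its inhibitor *KEAP1* were not called. Leaving out 1 library in turn left 9 to 12 members lower.

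The values of cell cycle genes moved with the library left out. Of 82 tested, 3 rose and 3 fell (3.66% each, against 9.37% and 10% of all genes), and the median was −0.74. Of the 65 genes of S, G2 and M phase, 0 were called by limma. Without Paraclone replicate 2, 48 were called lower and 4 higher, and the median was −1.5. Without Paraclone replicate 1 the median was −0.25, without parental replicate 1 or 3 the higher count was 0, and without any 1 of Paraclone replicates 1 and 3 and parental replicates 1 and 3 the lower count was 1. *TOP2A*, a topoisomerase of dividing cells chosen after its values were seen, was at 119, 133 and 122 TPM in parental and at 21.7, 186 and 30.0 TPM in Paraclone cells. The G1 regulators that were called included *CDKN1A*, the inhibitor p21, at 37.4, 37.5 and 35.3 TPM in parental and 194, 36.1 and 110 TPM in Paraclone cells (1.30 ± 0.42, adjusted p = 0.04). That call was lost without any 1 of the libraries other than Paraclone replicate 2, with log2 fold changes from 0.77 to 1.32 and with 1.96 without Paraclone replicate 2. High *TOP2A* and low *CDKN1A* thus met in the same library, and whether growth at harvest differed between the passages was not tested.

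Serine synthesis and stress genes under ATF4 lay below 0 in 22 of 23 tested, with a median of −0.72 (−0.44 without Paraclone replicate 2), but 3 were called, all lower. *SLC7A5*, a large amino acid transporter, fell from 1109, 1328 and 1048 TPM to 543, 529 and 562 TPM (−1.08 ± 0.17, adjusted p = 0.000306). *SLC7A5* was the steadiest of these 3 genes, with the 3 Paraclone libraries close together. For the list as a whole, 1 member was called lower without Paraclone replicate 2 or parental replicate 3, and Paraclone replicate 2 was the lowest library with a level of −1.13.

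Of 28 genes of cholesterol and fatty acid synthesis, *SQLE* was the 1 called (−1.16 ± 0.32, adjusted p = 0.018), and its call was lost without parental replicate 3 (−1.11), Paraclone replicate 1 (−0.97) or Paraclone replicate 3 (−1.16). Glycolysis and hypoxia genes had 6 higher and 4 lower of 36 tested (16.7% and 11.1%, against 9.37% and 10% of all genes). *ENO2*, an enolase, rose from 3.82, 3.59 and 3.40 TPM to 26.7, 10.8 and 16.7 TPM (1.97 ± 0.46, adjusted p = 0.00649), and *EGLN3*, an oxygen sensor, fell from 13.8, 16.3 and 14.4 TPM to 3.50, 4.13 and 4.26 TPM (−1.68 ± 0.29, adjusted p = 0.000635). *CA9*, a hypoxia target, was at 4.30, 7.21 and 5.57 TPM in parental and 6.77, 25.8 and 20.6 TPM in Paraclone cells (1.33 ± 0.32, adjusted p = 0.0081), with overlap between the groups. Its limma call was lost with a pseudocount of 0.1 (adjusted p = 0.0746). It was also lost in the limma fits of the 6 libraries compared (adjusted p = 0.143) and of the 9 Panc89 libraries (adjusted p = 0.0801). Without parental replicate 3, 3 members in place of 6 were called higher.

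In the TGF-beta and BMP family, 9 of 33 genes rose and 6 fell (27.3% and 18.2%, against 9.37% and 10% of all genes). *INHBA*, a subunit of activin, rose from 10.7, 11.7 and 11.8 TPM to 74.4, 35.2 and 46.0 TPM (2.03 ± 0.22, adjusted p = 1.11e-05), and *PMEPA1*, a target and brake of TGF-beta signalling, from 15.3, 17.6 and 14.2 TPM to 84.9, 50.7 and 65.0 TPM (2.00 ± 0.21, adjusted p = 8.76e-06). *GDF15*, a stress cytokine, fell from 262, 194 and 259 TPM to 37.2, 7.05 and 45.8 TPM (−3.28 ± 0.66, adjusted p = 0.00226), and *ID4*, an inhibitor of DNA binding, from 6.99, 2.75 and 7.31 TPM to 0.653, 0.536 and 0.329 TPM (−2.07 ± 0.29, adjusted p = 0.000131). Ligands were found on both sides, since *TGFB2* fell from 43.2, 33.9 and 36.8 TPM to 9.98, 18.3 and 11.7 TPM (−1.48 ± 0.27, adjusted p = 0.00122).

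WNT and Notch genes had 5 higher and 10 lower of 44 tested (11.4% and 22.7%, against 9.37% and 10% of all genes). The ligands *WNT9A* and *WNT7A* rose, *WNT9A* from 1.14, 2.11 and 1.32 TPM to 28.9, 5.82 and 15.1 TPM (2.58 ± 0.36, adjusted p = 0.000121) and *WNT7A* from 1.67, 4.33 and 1.48 TPM to 20.4, 6.14 and 10.9 TPM (1.89 ± 0.36, adjusted p = 0.00148). The *WNT7A* call was lost in the limma fit of the 6 libraries compared (adjusted p = 0.062). Receptors split, as *FZD10*, *FZD6* and *FZD5* fell and *FZD8* rose. In the Notch pathway 0 of 13 rose and 5 fell, among them the ligand *DLL1* and the target *HEY1*, while *NOTCH1*, *NOTCH2* and *NOTCH3* were not called. The 3 genes with the largest Notch losses were *NRARP* (−1.80 ± 0.25), *DLL1* (−1.53 ± 0.21) and *HEY1* (−1.41 ± 0.22), named after their values were seen.

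ERBB, FGF and MAPK genes had 8 higher and 7 lower of 35 tested (22.9% and 20.0%, against 9.37% and 10% of all genes). *FGFR3* fell from 52.7, 46.3 and 54.5 TPM to 4.35, 11.3 and 6.82 TPM (−2.70 ± 0.37, adjusted p = 9.37e-05), and all 3 FGF receptors called (*FGFR1*, *FGFR2* and *FGFR3*) were lower while the ligand *FGF2* was higher. The ERBB ligand *NRG1* fell from 11.4, 11.2 and 13.2 TPM to 1.99, 3.06 and 1.21 TPM (−2.10 ± 0.3, adjusted p = 0.000151), with 36.8 to 50.8 TPM in Holoclone cells. *PHLDA1*, a MAPK target, rose from 83.6, 94.5 and 85.5 TPM to 405, 140 and 246 TPM (1.45 ± 0.28, adjusted p = 0.00162). Without Paraclone replicate 1 or parental replicate 3, 3 members in place of 8 were called higher. YAP and TEAD genes had 8 higher (36.4%) and 2 lower (9.09%) of 22, with *AXL* and *NT5E* above among the higher ones. *CCN2*, a classical YAP target, went against them, from 81.5, 56.5 and 109 TPM to 8.73, 22 and 12.9 TPM (−2.47 ± 0.54, adjusted p = 0.004), and without Paraclone replicate 1 or parental replicate 3 the higher count was 5.

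The remaining lists had few calls. Of 23 apoptosis genes, 3 rose, *BCL2L1* (1.25 ± 0.25), *MCL1* (1.15 ± 0.20) and *BIK* (1.12 ± 0.14), and 2 fell, among them *BCL2L11* (−0.88 ± 0.19). Without Paraclone replicate 2, 4 were higher and 5 lower, and without Paraclone replicate 1 or 3 or parental replicate 1 or 3, 1 was lower. *MCL1* was at 248, 265 and 274 TPM in parental and at 757, 417 and 633 TPM in Paraclone cells. Of 28 HOX genes 5 rose and 0 fell, led by *HOXA3*, from 45.7, 41.8 and 44.7 TPM to 87.2, 84.2 and 79.0 TPM (0.91 ± 0.10, adjusted p = 1.10e-05). Gemcitabine handling and ABC transporter genes had 2 higher and 4 lower of 21, with 7 lower without Paraclone replicate 2, and *HMGA1*, a chromatin protein, rose from 1014, 1383 and 1006 TPM to 3345, 1807 and 2718 TPM (1.18 ± 0.22, adjusted p = 0.00142). *SLC28A3*, a nucleoside importer, fell (−1.75 ± 0.35, adjusted p = 0.00216), with overlap between the groups. Epigenetic enzymes had 1 higher and 2 lower of 18, and 0 higher and 6 lower without Paraclone replicate 2. Metallothioneins had 0 higher and 1 lower of 6. Immediate early and heat shock genes had 1 higher and 4 lower of 17, and 2 higher and 3 lower without Paraclone replicate 2, with *EGR2* from 10.6, 8.30 and 15.8 TPM to 0.873, 1.41 and 1.11 TPM (−2.52 ± 0.46, adjusted p = 0.00098).

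Among markers of other cell types, *PECAM1*, an endothelial adhesion gene, fell from 64.7, 53.1 and 62.5 TPM to 1.92, 6.90 and 4.8 TPM (−3.57 ± 0.26, adjusted p = 1.59e-07), and the lysosomal macrophage marker *CD68* rose from 8.31, 14.6 and 10.4 TPM to 63.0, 33.8 and 60.8 TPM (2.13 ± 0.22, adjusted p = 7.32e-06). Of 4 endothelial markers, 2 were tested and both fell, the other being *CDH5* (−0.84 ± 0.21), and the other 2 were under 1 TPM in all 6 libraries. The median deviation of the 2 tested from their parental mean was −2.80, −1.80 and −2.02 in Paraclone libraries. In Holoclone libraries it was −3.16, −3.48 and −3.52, so both variants lay below the parental cells. Of 6 leukocyte markers, 2 were tested and 1 rose, and 4 were under 1 TPM. Endothelial markers summed to 55.2 to 69.1 TPM in parental and to 2.95 to 8.90 TPM in Paraclone libraries, and leukocyte markers to 13.6 to 19.3 and to 36.4 to 66.0 TPM. Their part in the other results was not tested. In these cultures of 1 cell line, a cell of another type is not part of the design.

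Called genes were not spread evenly over the genome. Of 537 genes tested on chromosome 8, 141 (26.3%) were called lower with a median log2 fold change of −0.23, and of 644 on chromosome 9, 148 (23%) with a median of −0.23, against 10% of all genes. Chromosome 11 followed with 150 of 895 (16.8%). Higher calls were most frequent on chromosome 10, with 101 of 604 (16.7%), and chromosome 18, with 36 of 220 (16.4%), against 9.37% of all genes. On the other autosomes, the lower share ran from 5.99% on chromosome 14 to 11.8% on chromosome 5.

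**Figure D4:**
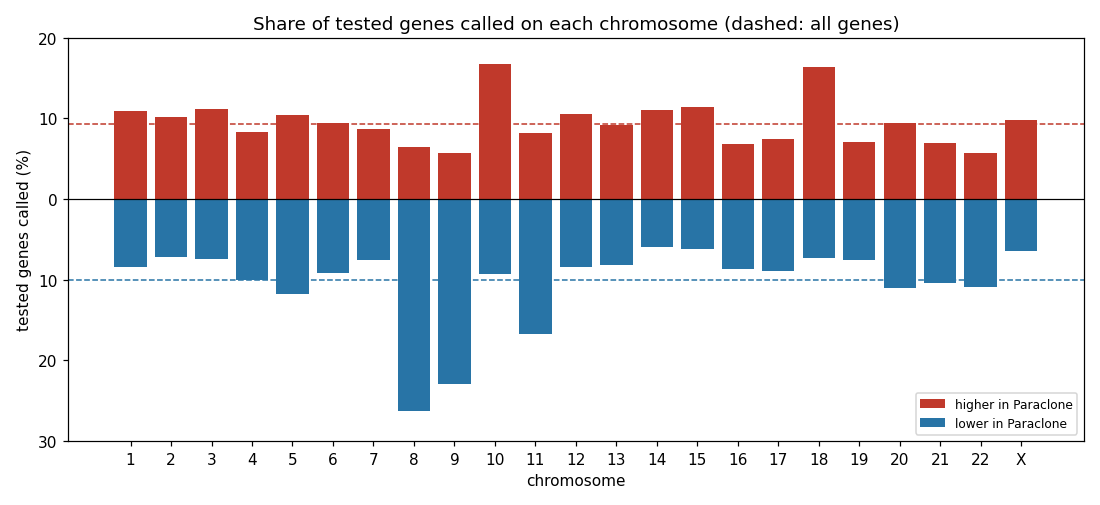
The share of tested genes called on each chromosome is drawn upwards in red for genes higher in Paraclone cells and downwards in blue for genes lower, both in percent. Dashed lines give the share over all genes (9.37% and 10%), and the lower shares of chromosomes 8 (26.3%) and 9 (23%) reach farthest beyond them.

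A running median over 41 neighbouring genes went beyond 0.3 in 8 stretches, a definition chosen after the data were seen. Of these, 7 were lower and together held 723 of 15875 genes with a position (4.55%) and 280 of the 1598 lower calls with a position (17.5%). Outside all stretches, 8.72% of genes were called lower. The stretches were picked by these same changes. Their high shares of calls, their medians and the side of their Paraclone deviations therefore follow in large part from the rule. The widest lay on chromosome 8 from 73780097 to 142736927 (GRCh38, GENCODE 44) with 214 genes, of which 91 (42.5%) were lower and 6 higher, and with a median of −0.53. Its median deviation was −0.59, −0.42 and −0.59 in the Paraclone libraries and 0.03, −0.08 and 0.02 in the parental ones, and its Panc1 counterpart, Panc1 Paraclone against parental Panc1, had a median of −0.06. The stretch holds *GRHL2*, *SQLE*, *FZD6* and *HEY1* of the lists above. *MAL2*, a protein of apical transport, also lies there and fell from 280, 268 and 278 TPM to 137, 193 and 128 TPM (−0.87 ± 0.14, adjusted p = 0.000339).

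On chromosome 11 from 108008898 to 134378341, 73 of 161 genes (45.3%) were lower and 6 higher, with a median of −0.54 and Paraclone deviations of −0.60, −0.33 and −0.64. *CADM1* and *MCAM* lie in it, and *ETS1*, a transcription factor chosen after its values were seen, rose there from 12.4, 12.0 and 12.3 TPM to 53.1, 25.4 and 30.6 TPM (1.43 ± 0.23). The Panc1 median over these genes was −0.31, with a median of −0.17 over all genes in that line. On chromosome 9 there were 3 lower stretches, from 83938311 to 94200905 with 16 of 49 genes lower, from 113313222 to 128947603 with 40 of 122 lower and from 129081111 to 136672678 with 38 of 90 lower, with medians of −0.38, −0.44 and −0.41. On chromosome 5, 12 of 43 genes were lower from 92168 to 10657816 and 10 of 44 from 25087450 to 39274528, with medians of −0.36 and −0.34.

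The 1 higher stretch lay on chromosome 10 from 130088 to 31320447, where 57 of 122 genes (46.7%) rose and 8 fell, with a median of 0.48. Its Paraclone libraries were at 0.42, 0.61 and 0.39 and its parental libraries at −0.01, −0.04 and 0.06, and the Panc1 median was −0.16. *BMI1*, a Polycomb subunit, lies in it and went from 27.1, 22.1 and 29.9 TPM to 47.2, 45.7 and 30.2 TPM (0.60 ± 0.18, adjusted p = 0.0265). That call was lost without parental replicate 1 (0.63), parental replicate 2 (0.48), Paraclone replicate 1 (0.49) or Paraclone replicate 2 (0.51). *AKR1C2* lies there as well and fell, so the stretch was not uniform. The study marker *VIM* also lies in this stretch, whose last gene is *ZEB1-AS1*, the antisense neighbour of *ZEB1*. No measurement of DNA was analysed here, and the part of the DNA in these values was not tested.

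**Figure D5:**
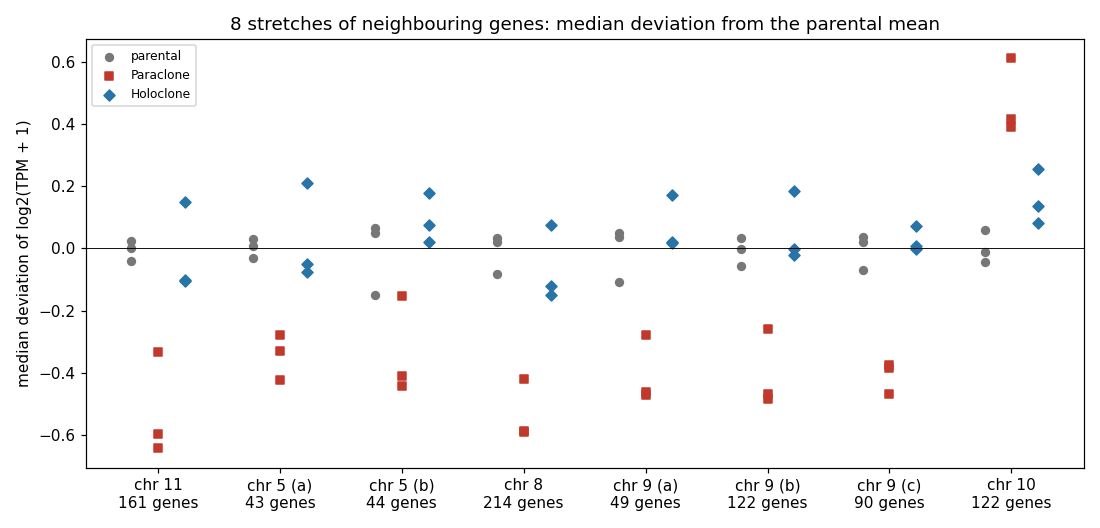
For each of the 8 stretches, the y axis gives how far its genes lay from their parental mean (median over genes, log2(TPM + 1)), with 1 point per library. Every Paraclone library lies below every parental library in the 7 lower stretches, with the second chromosome 5 stretch nearly touching at −0.15. On chromosome 10 every Paraclone library lies above every parental one (0.39 to 0.61). As the stretches were picked by these same changes, this separation follows in large part from the rule. Holoclone libraries lie between −0.15 and 0.25.

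In the stretches, counts moved with single libraries: on chromosome 8 the lower count ran from 73 to 107, on chromosome 11 from 52 to 88 and on chromosome 10 the higher count from 47 to 54 as 1 library was left out in turn, with the highest lower counts without Paraclone replicate 2. On chromosome 9 the middle stretch had 25 lower genes without parental replicate 3. On chromosome 5 the first stretch had 6 without Paraclone replicate 3, and the second had 6 without parental replicate 1 or 3 and 16 without Paraclone replicate 2. Shorter runs of called neighbours in 1 direction reached 9 genes. In 1 of them, on chromosome 8 from 142740949 to 143060684, lay the LY6 family members *SLURP1*, *LYPD2*, *SLURP2*, *LYNX1*, *LY6D* and *LY6E*, with log2 fold changes between −3.20 and −0.81. *LYPD2* was at 24.2, 11.5 and 26 TPM in parental and at 1.90, 2.51 and 3.12 TPM in Paraclone cells. The readthrough *LYNX1-SLURP2* overlaps its neighbours, so the split between them is uncertain.

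The change from parental to Paraclone cells was then set against that in Panc1, which uses no library of the Panc89 comparison. In Panc1, 4599 genes (28.6%) were called. In an interaction test, limma called a different change for 4159 genes (25.8%), 2741 (17.0%) with the higher change in Panc89 and 1418 (8.81%) with the lower one. The split depended on scaling, as upper quartile scaling gave 1859 and 1885 and median-of-ratios scaling 1807 and 1924. Without scaling, the median difference over all genes was 0.17. Across genes the changes in the 2 lines correlated at 0.0766, given as a description, and of 959 genes called in both lines 567 moved the same way and the others in opposite ways.

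Among the genes with the largest differences, *H19* stood out by its loss in Panc89 alone, with −8.10 there and −0.00 in Panc1, where parental cells held a mean of 296 TPM (difference −8.09 ± 0.36, adjusted p = 5.66e-10). *CP*, which encodes ceruloplasmin, fell in Panc89 from 55.2, 13.1 and 64.8 TPM to 0.636, 1.87 and 3.14 TPM (−3.80 ± 0.45) and rose in Panc1 by 4.09 (difference −7.89 ± 0.63, adjusted p = 4.46e-07). *MMP1*, a collagenase, was not called in Panc89 (−0.76, with 0.27 without Paraclone replicate 2) and rose by 6.71 in Panc1 (difference −7.48 ± 0.85, adjusted p = 1.38e-05). In the opposite direction, *AFAP1L2*, *CD24* and *HOXC12* had differences of 6.51, 6.22 and 5.50, made mostly of losses in Panc1 (−5.61, −6.47 and −5.50). Of the 8 study markers, the change differed between the lines for *NES*, *SOX2*, *OVOL2*, *ZEB1* and *ZEB2*. The differences of *CDH1* (−0.34), *L1CAM* (0.25) and *VIM* (0.16) were not called.

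Lists can be read against Panc1 in the same way. Antigen presentation genes had a median of −0.76 in Panc89 and 0.51 in Panc1, and 15 of 21 had a different change by the interaction test, which called 25.8% of all genes. NRF2 and xenobiotic metabolism genes had medians of −0.39 and 0.33, with 19 of 35 differing. Integrins and laminins had medians of 0.49 and 0.56, with 10 of 22 differing, and *ITGB4* rose by 1.54 in Panc89 and 1.68 in Panc1 (difference −0.14, adjusted p = 0.854). In cell cycle genes, with medians of −0.74 and −0.36, 3 of 82 differed.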

How the data were processed

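RNA from 3 passages per variant was sequenced by the authors as stranded poly(A) mRNA libraries (paired-end), quantified with kallisto 0.46.1 against Ensembl GRCh38 transcripts and summed to genes with tximport. The deposited table holds log2(TPM + 1) values that the authors made from scaled TPM (40266 gene symbols, 18 libraries). The base of the logarithm was read from the values, since raised back from log2 the TPM of the 6 libraries compared summed to 985508 to 987203. TPM in the text are values raised back in this way, and 0 columns were left without a sample. The authors' own tests used DESeq2, and no read counts were tested here. The log2 values were tested as deposited, and the 16093 genes that reached 1 TPM or more in 3 or more libraries were fitted with limma-trend (limma 3.58.1, R 4.3.3) as 6 group means over all 18 libraries, with contrasts for Paraclone against parental and for its difference between lines. P-values were adjusted by Benjamini-Hochberg over all 16093 genes at 0.05.

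Groups came from the labels. The members and lists were chosen with earlier results of these data known. Named genes were the 10 highest and 10 lowest called genes whose higher group averaged 10 TPM or more, without overlap, the 8 study markers, up to 4 called members of each list with at least 5 TPM and the largest changes, and the 3 highest and 3 lowest line differences. Chosen after their values were seen were *AKR1C1*, *ALDH1A1*, *CDH5*, *CIITA*, *CYP1A1*, *DLL1*, *DSC3*, *ETS1*, *FGF2*, *FGFR1*, *FGFR2*, *FOXA2*, *FZD10-AS1*, *FZD5*, *FZD6*, *FZD8*, *HEY1*, *IFIT5*, *IGF2*, *IGFBP6*, *ITGA6*, *KEAP1*, *LAMA1*, *LAMA4*, *LAMB3*, *MIR31HG*, *MKI67*, *NFE2L2*, *NOTCH1*, *NOTCH2*, *NOTCH3*, *NRARP*, *PSMB8*, *SERPINB4*, *SNAI1*, *TOP2A* and the genes of the LY6 run. Some genes of the lists are not reported here by name. Positions are those of GENCODE 44, found for 15875 genes tested.

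The alternatives were other pseudocounts, filters and scalings, fits to fewer groups, a replicate block and leaving out each library. Deviations of same-numbered libraries correlated at 0.0612, 0.0455 and 0.0342, and those of unlike numbers at −0.0670 to 0.0313. The replicate numbers are not said to mark shared days, so they were not taken as pairs in the main fit.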

Additional observations from a re-analysis of the deposited data

Results flagged for a closer look

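The change from parental to Paraclone cells differed between Panc89 and Panc1 by the interaction test of limma for 11 of the named genes. The difference, Panc89 minus Panc1 on the log2 scale, was 6.51 for *AFAP1L2*, 6.22 for *CD24* and 5.50 for *HOXC12*. It was −8.09 for *H19*, −7.89 for *CP* and −7.48 for *MMP1*. Among the study markers it was 4.15 for *NES*, −4.05 for *SOX2*, 1.34 for *ZEB1*, 1.13 for *ZEB2* and 0.72 for *OVOL2*. The call of *OVOL2* was lost without parental Panc89 replicate 1 (0.61) and without Panc89 Paraclone replicate 3 (0.72), and also without 5 of the 6 Panc1 libraries. Groups of 3 libraries were not tested for outliers.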

How the results depend on the processing

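The call counts of Panc89 Paraclone against parental cells kept within 1.5 times under most alternatives, among them both scalings, both pseudocounts and the fits of the 6 or 9 Panc89 libraries alone. A required log2 fold change beyond 1 left 1184 genes, 513 higher and 671 lower, and for the difference between the lines 2232, 1305 higher and 927 lower. With median-of-ratios scaling, the higher line differences were 1807. With 1 library left out in turn, the genes called ran from 2116 to 4249, the higher ones from 1053 to 1788 and the lower ones from 1063 to 2461, with the highest counts without Paraclone replicate 2. Of 121 named genes that were called, 97 stayed called in every leave-one-out, and 38 under all alternatives run. The limma fit of the 6 libraries compared lost further calls. Among them were *PHLDA1* (adjusted p = 0.0613), *IFIT1* (adjusted p = 0.159), *CDKN1A* (adjusted p = 0.212), *BMI1* (adjusted p = 0.122) and *SLC28A3* (adjusted p = 0.102). Signs turned for *HOXC12* (−0.007262 without parental replicate 2 and −0.00825 without Paraclone replicate 2), for *MMP1* (0.27 without Paraclone replicate 2), and for the VIM line difference (−0.0196 with upper quartile and −0.0469 with median-of-ratios scaling) and the L1CAM line difference (−0.19 without Paraclone replicate 2), none of which was called, and the cause was not tested. With 1 library left out in turn, *HOXC12* ran from −0.00825 to 0.00873, *MMP1* from −1.55 to 0.27 and the L1CAM line difference from −0.19 to 0.50.

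The replicate block within each line called 2693 genes, 1315 higher and 1378 lower. The block in the 6 libraries alone called 591, 213 higher and 378 lower, whereas the same 6 libraries without the block called 2240. Correlations of same-numbered libraries were 0.0612, 0.0455 and 0.0342, small but above those of unlike numbers (−0.0670 to 0.0313). What same-numbered libraries share was not tested. TPM hold no depth, so what counting error adds for low genes cannot be given.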
